A study of Homo sapiens with 2 samples.

Results

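The 10 genes described here encode enzymes of glycolysis: HK2, GPI, ALDOA, TPI1, GAPDH, PGK1, PGAM1, ENO1, PKM and LDHA. They were taken by symbol from the 20298 protein-coding features among the 741078 features of the count tables, and each symbol matched 1 feature. The tables come from CLIP-seq of hTrmt13 (TRMT13), a tRNA methyltransferase. The cells were MDA-MB-231, a long-established line from a human breast carcinoma with mesenchymal character. In CLIP-seq, RNA crosslinked to a protein is recovered with an antibody and sequenced. There was 1 group with 2 replicates. The labels name no treatment, genotype or time for it, and do not say whether the antibody was directed at the native protein or at a tag. With 0 control libraries analysed here, a level is what was recovered and not an enrichment. Separate cultures are not stated for the replicates, so their spread may be technical. Reads were paired, and each mate (R1, R2) was counted in a table of its own, which gives 4 tables. Values are from R1 unless stated.

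Glycolysis splits glucose into pyruvate in the cytosol and yields ATP and NADH without oxygen. Hexokinase and glucose-6-phosphate isomerase prepare the sugar, aldolase cuts it into triose phosphates, and the enzymes after that step recover ATP. Tumour cells often run the pathway at a high rate and reduce pyruvate to lactate with lactate dehydrogenase. The mRNAs of these enzymes are among the abundant housekeeping messages of most cells, and many of them have left processed pseudogenes, which are intronless copies of the mRNA elsewhere in the genome. Such copies matter for read counts, since a short read may match several of them.

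R1 counts summed to 27907799 for replicate 1 and to 20590398 for replicate 2. The R2 totals were 40.3% and 42.7% of those. All totals are sums over the listed features, so a read in overlapping features can enter them more than once. Protein-coding features that overlap no tRNA feature held 5.45% of the R1 counts in replicate 1 and 10.7% in replicate 2. The share of these features as a whole, introns included, thus stood apart between the libraries. The cell line's markers were only in part represented. VIM had 382 and 722 counts and MSN had 203 and 321, whereas CD44 had 12 and 7, AXL 16 and 12, and CAV1 13 and 29. The luminal markers ESR1 (4 and 20), PGR (0 and 4), GATA3 (11 and 33), KRT18 (22 and 49) and EPCAM (20 and 27) were low, as were PTPRC (9 and 7), COL1A1 (43 and 77), ACTC1 (0 and 2) and ALB (0 and 0). Counts of CD44, AXL and CAV1 thus lay within the range of those of markers of other cell types.

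All 10 genes were recovered in both libraries, and together they held 6289 R1 counts in replicate 1 and 11052 in replicate 2. That was 0.0225% and 0.0537% of the library totals, and 0.413% and 0.500% of the counts of protein-coding features without a tRNA overlap. None of the 10 spans overlapped a tRNA feature (0 of 10). All passed the minimum mean R1 count of 10 that 13220 protein-coding features passed.

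In the preparatory steps, HK2, the hexokinase that traps glucose as glucose-6-phosphate, had the fewest counts, 173 in replicate 1 and 279 in replicate 2. GPI, which turns glucose-6-phosphate into fructose-6-phosphate, had 535 and 951 counts. ALDOA, the aldolase that cuts fructose bisphosphate, had 1027 and 1810 counts. TPI1, which interconverts the 2 triose phosphates that aldolase releases, had 349 and 652. Every one of these genes had more counts in replicate 2, although that library had the smaller R1 total.

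In the steps that recover ATP, GAPDH, which oxidises glyceraldehyde-3-phosphate and makes NADH, had 1040 and 1874 counts. PGK1, which makes ATP from bisphosphoglycerate, had 411 and 666. PGAM1, the mutase that moves the phosphate of phosphoglycerate, had 239 and 382. ENO1, the enolase, had the most counts of the 10 genes in both libraries. It stood at 1315 in replicate 1 and 2335 in replicate 2. PKM, the pyruvate kinase that makes ATP and pyruvate, had 666 and 1244 counts, and LDHA, which turns pyruvate into lactate, had 534 and 859. Counts of different genes compare only after division by length.

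The tables list each gene by its whole span on the hg19 build, introns included. In CPM (counts scaled to the R1 library total) per kilobase of span, GAPDH was highest at 14.4 ± 8.54 (SD, n = 2), with 234 raw counts per kilobase in replicate 1 and 421 in replicate 2. ALDOA followed at 9.91 ± 5.74, with 163 and 288 raw counts per kilobase. TPI1 stood at 5.77 ± 3.54 (91.1 and 170 raw counts per kilobase), ENO1 at 4.40 ± 2.57 (72.1 and 128) and LDHA at 2.17 ± 1.14 (38.0 and 61.2). Next in order came PGAM1 at 1.86 ± 0.970 (32.8 and 52.5), PKM at 1.28 ± 0.788 (20.3 and 37.9) and GPI at 0.761 ± 0.445 (12.5 and 22.2). HK2 stood at 0.166 ± 0.0875 (2.91 and 4.70) and PGK1 at 0.108 ± 0.0570 (1.88 and 3.05) CPM per kilobase of span (SD, n = 2 each). The SDs were wide because every gene was higher in replicate 2. The order itself was the same in both R1 tables for all 9 pairs of neighbours, and in the R2 tables the pair LDHA and PGAM1 changed places in 1 of 2.

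The listed span of a gene can be far longer than its mRNA. The exon union, meaning all bases in an exon of any transcript of the gene in GENCODE 29, made up 70.5% of the TPI1 span, 67.0% of GAPDH and 62.2% of ALDOA, against 10.2% of HK2 and 2.52% of PGK1. The PGK1 feature (ENSG00000102144.14_3, chromosome X, 77166236 to 77384793, plus strand) is 218558 bases long and overlaps ATP7A (77166153 to 77305892), a copper transporter gene that covers 63.9% of it. ATP7A held 101 and 144 counts, and at least 310 and 522 PGK1 counts lay outside it, or at least 3.93 and 6.62 per kilobase. These are minima because ATP7A starts shortly before the PGK1 feature, so its counts need not all be PGK1 counts. RP5-1000K24.2, listed as a transcribed processed pseudogene, covers 24.8% of the PGK1 feature and held 25 and 18 counts.

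Per kilobase of exon union, a measure chosen after the data were seen, the genes lay closer together. The counts are still those of the whole span, introns and overlapping features included, since no exonic counts were available. GAPDH again led with 21.5 ± 12.7 CPM per kilobase of exon, followed by ALDOA at 15.9 ± 9.23, ENO1 at 15.2 ± 8.88 and TPI1 at 8.18 ± 5.02 (SD, n = 2 each). PGAM1 (5.28 ± 2.75), PKM (4.92 ± 3.02), LDHA (4.90 ± 2.57) and PGK1 (4.27 ± 2.26) formed a middle group, above GPI at 3.06 ± 1.79 and HK2 at 1.63 ± 0.857. PGK1 moved from the last place to the eighth. Its 411 and 666 counts can include reads in the stretch shared with ATP7A, which held 101 and 144 counts, so that place is uncertain. The highest gene was 134-fold above the lowest per kilobase of span and 13.2-fold per kilobase of exon. Within the libraries, GAPDH was 1.33-fold and 1.36-fold above ALDOA in replicates 1 and 2, and ALDOA only 1.05-fold and 1.04-fold above ENO1. PKM and LDHA changed order between the libraries (0.904-fold and 1.05-fold), so their levels were not separated.

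**Figure D1:**
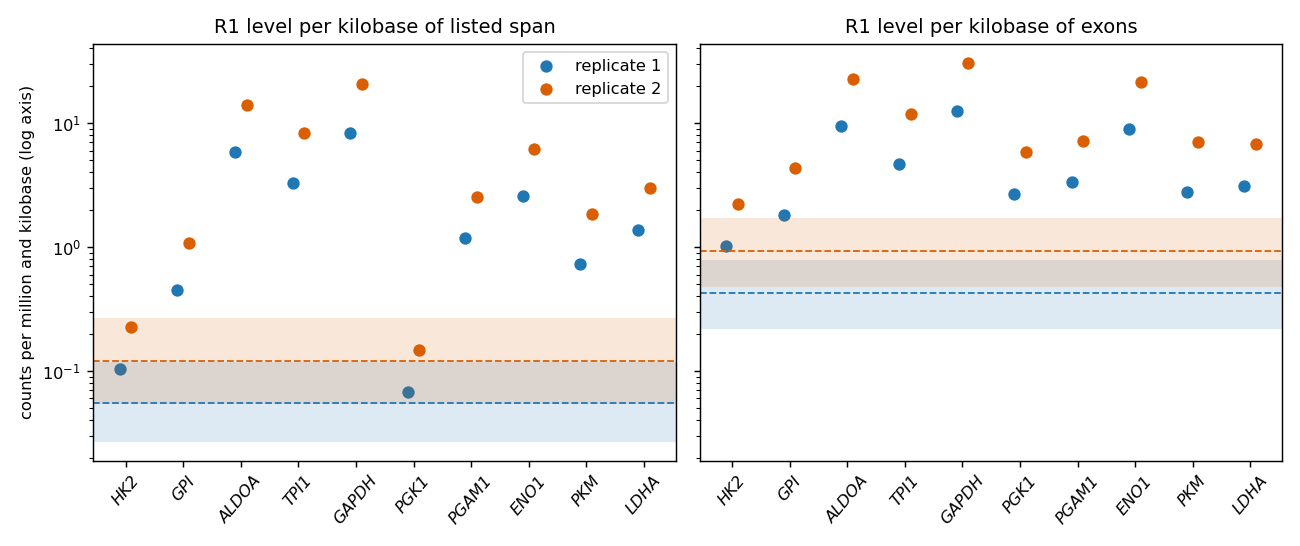
Levels of the 10 genes in pathway order, in R1 CPM per kilobase of listed span (left) or of exon union (right), both on a log axis. Points are the 2 replicates, and dashed lines and bands are the median and quartiles of all protein-coding features past the minimum in the same replicate. PGK1 and HK2 lie within the band per kilobase of span, while all 10 genes lie above the upper quartile per kilobase of exon.

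Against the other protein-coding features the glycolytic genes were high. Their median level was 22.8-fold the protein-coding median per kilobase of span in replicate 1 and 22.7-fold in replicate 2, and 7.53-fold and 7.65-fold per kilobase of exon. The median percentile was 98.3 in replicate 1 and 98.1 in replicate 2 per kilobase of span, and 97.2 in both per kilobase of exon. Of the 10 genes, 8 lay above the upper quartile per kilobase of span in each replicate, and all 10 did per kilobase of exon. GAPDH reached percentile 99.5 and 99.6 per kilobase of span, whereas HK2 stood at 71.2 and 70.4 and PGK1 at 56.8 and 57.0. Per kilobase of exon PGK1 stood at 96.4 and 96.3 and HK2 was the lowest of the 10, at 82.8 and 83.5. The RNA level of these genes in the cells was not measured here, so a rank among recovered genes and a rank by abundance cannot be told apart.

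The second replicate held a larger share of every glycolytic gene. Scaled by library totals, the ratio of replicate 2 to replicate 1 ran from 2.17 for PGAM1 to 2.53 for TPI1 and PKM, with a median of 2.40. All 10 genes were called higher by the exact two-sided binomial test of the split of counts with Benjamini-Hochberg adjustment. So were 89.3% of the 13220 protein-coding features tested, whose median ratio was 2.16, so the count of 10 is close to the background. The test compares these 2 libraries and not conditions, and it treats PCR reads as independent molecules, so its p-values cover counting error only. In bulk libraries, a change in the cells, a change in RNA per cell and a technical difference between the libraries cannot be told apart.

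Measured against protein-coding counts without a tRNA overlap, the shift between the libraries was smaller. The ratio ran from 1.10 for PGAM1 to 1.29 for TPI1 and PKM, with a median of 1.22 against 1.10 over all protein-coding features. The same exact binomial test called 6 of the 10 genes higher and 0 lower, against 5.25% and 1.63% of all features tested. The 6 were ENO1 (ratio 1.22, adjusted p = 5.07e-07), GAPDH (1.24, 2.08e-06), PKM (1.29, 1.18e-05), ALDOA (1.21, 4.96e-05), TPI1 (1.29, 0.00488) and GPI (1.22, 0.00617). HK2 (1.11), PGK1 (1.12), PGAM1 (1.10) and LDHA (1.11) did not pass, with adjusted p from 0.293 to 0.626. Features with many counts pass such a test at small ratios, and the glycolytic genes had a median of 534.5 counts in replicate 1 against 59 over the features tested. The calls fell to 3 (ENO1, GAPDH and PKM) with trimmed-mean (TMM) factors and to 2 (GAPDH and PKM) with median-of-ratios size factors. All 10 ratios lay above the protein-coding median. A scaling multiplies all ratios by the same factor, so this is 1 observation whatever the scaling.

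**Figure D2:**
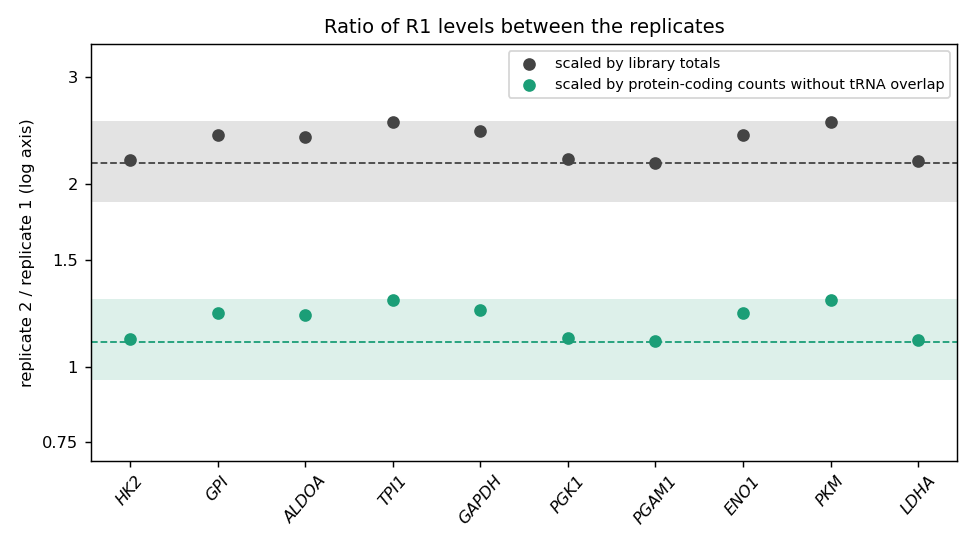
Ratio of the R1 level in replicate 2 to that in replicate 1 for each gene, on a log axis, scaled by library totals (dark) or by protein-coding counts without tRNA overlap (green). Dashed lines and bands are the median and quartiles of all 13220 protein-coding features tested. The genes lie between 2.17 and 2.53 under the first scaling and between 1.10 and 1.29 under the second, inside or at the edge of the bands.

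The 2 mates did not recover these genes equally. The R2 count was lower than the R1 count for all 10 genes, in both replicates. As a percent of R1, it was lowest for TPI1, at 65.6% in replicate 1 and 70.2% in replicate 2, and highest for GPI, at 89.7% and 88.3%. GAPDH stood at 76.6% and 74.8%, ENO1 at 78.2% and 74.4%, ALDOA at 78.9% and 75.5%, and LDHA at 78.5% and 72.5%. PKM (84.1% and 77.9%), PGAM1 (80.3% and 86.6%), PGK1 (86.4% and 85.3%) and HK2 (87.3% and 82.4%) were nearer to the median of protein-coding features, which was 87.8% in replicate 1 and 84.6% in replicate 2. The median over the 10 genes was 79.6% and 76.7%. Of the 10, 9 lay below the protein-coding median in replicate 1 and 7 in replicate 2, and 6 lay below the lower quartile in each. Mates come from the same fragments, so these ratios are a description with no test. They also stand apart from the ratio of the library totals, which was 40.3% and 42.7%.

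Listed features inside the spans show where some of the reads lay, provided that counting ignored strand, which the labels do not state. A feature that lies wholly inside another on the opposite strand can then never hold more counts than the outer one. Among such pairs with at least 10 counts in the inner feature, the inner count exceeded the outer count in 0 of 1731 and 0 of 2211 pairs in R1 of replicates 1 and 2, and in 0 of 1534 and 0 of 1967 in R2. The counts of an enclosed feature were therefore taken as part of the counts of the gene around it, whatever its strand. RP5-940J5.9 (chromosome 12, 6646960 to 6647536) is annotated as antisense to GAPDH and lies wholly in the GAPDH feature (ENSG00000111640.14_2, chromosome 12, 6643093 to 6647540, plus strand), starting 3867 bases from the start of that 4448-base span. Its 577 bases are 13.0% of the span. It held 735 of the 1040 GAPDH counts of R1 in replicate 1, or 70.7% (95% Clopper-Pearson interval 67.8 to 73.4%), and 1285 of 1874 in replicate 2, or 68.6% (66.4 to 70.7%). In R2 it held 339 of 797 counts, or 42.5% (39.1 to 46.1%), and 582 of 1402, or 41.5% (38.9 to 44.1%). The intervals of the mates do not overlap, and those of the replicates do. They cover counting error only. Since mates come from the same fragments, the gap between their intervals is not a test.

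On that reading, the mate ratio was below 100% in the end segment and above it in the rest of GAPDH. Within the segment the R2 count was 46.1% and 45.3% of the R1 count. In the rest of the span it was 150% and 139%, with 458 R2 counts against 305 R1 counts in replicate 1 and 820 against 589 in replicate 2. Per kilobase, the segment held 16.2-fold and 14.6-fold the R1 counts of the rest, but 4.97-fold and 4.76-fold the R2 counts. Reads of GAPDH and of its antisense partner cannot be told apart in such counts.

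**Figure D3:**
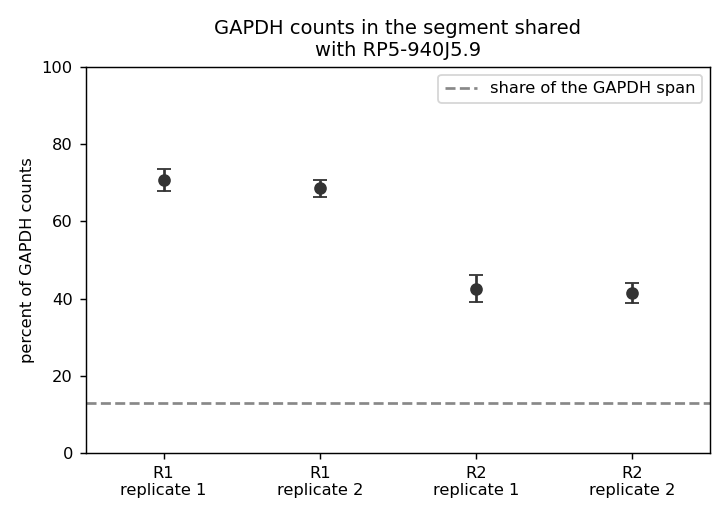
Percent of GAPDH counts that lay in the segment shared with the antisense feature RP5-940J5.9, in each of the 4 count tables, with exact 95% Clopper-Pearson intervals. The dashed line is the segment's 13.0% share of the GAPDH span. R1 lies at 70.7% and 68.6%, and R2 at 42.5% and 41.5%.

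Some of the other enclosed features held few counts. AC084117.3, annotated as sense intronic, covers 1123 bases of the LDHA feature (ENSG00000134333.13_3, chromosome 11, 18415935 to 18429972, plus strand). It held 0 of 534 LDHA counts in replicate 1 and 5 of 859 in replicate 2. RP3-477M7.3, an antisense feature, shares the first 416 bases of ENO1 (ENSG00000074800.14_4, chromosome 1, 8921059 to 8939309, minus strand), and it held 0 and 2 counts beside 1315 and 2335 for ENO1. In ALDOA (ENSG00000149925.18_5, chromosome 16, 30075485 to 30081778, plus strand), the antisense feature CTD-2515O10.5 covers 8.26% of the span and held 7 and 4 counts in R1 and 18 and 28 in R2. The protein-coding feature CTD-2515O10.6 covers 99.4% of ALDOA and runs on upstream of it. Its 1036 and 1827 counts are nearly those of ALDOA, so the 2 features share most of their reads.

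In GPI (ENSG00000105220.15_4, chromosome 19, 34850385 to 34893318, plus strand), the last 14.2% of the span is shared with the protein-coding feature RP11-618P17.4, which held 234 and 473 counts against 535 and 951 for GPI. That feature also extends beyond GPI, so its counts are not all GPI counts. TPI1 (ENSG00000111669.14_3, chromosome 12, 6976283 to 6980112, plus strand) shares only 14 bases with SPSB2, which held 17 and 34 counts. HK2 (ENSG00000159399.9_3, chromosome 2, 75061108 to 75120486, plus strand) shares 7 bases with a long non-coding feature at 0 and 5 counts. PGAM1 (ENSG00000171314.8_2, chromosome 10, 99185917 to 99193198, plus strand) and PKM (ENSG00000067225.17_4, chromosome 15, 72491370 to 72524163, minus strand) overlap no listed feature other than piRNAs. Inside the 10 spans lie 150 listed piRNA features, short sequences that often repeat across the genome. They held 13 and 10 R1 counts in all, and the highest was piR-hsa-23387 in GPI at 8 and 7 counts.

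Pseudogene copies of the glycolytic genes held a large number of counts. By the symbols in the tables, 12 copies of 4 genes were found, with 286 R1 counts in replicate 1 and 510 in replicate 2. When Ensembl gene IDs were looked up in a table of current names, a step added after the data were seen, 102 copies of 9 genes were found. They held 2269 and 3878 R1 counts, or 39.4% and 38.4% of the counts of their 9 parent genes, and 55.3% and 53.8% in R2. GPI had 0 listed copies and GAPDH had 65, of which 56 held a count.

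By gene, the GAPDH copies summed to 62.9% and 68.8% of the GAPDH count in R1 (654 and 1289 counts) and to 97.9% and 99.1% in R2 (780 and 1390 counts). The 6 LDHA copies summed to 60.5% and 53.7% in R1 and to 79.2% and 79.9% in R2. The 4 TPI1 copies summed to 48.4% and 51.4% in R1 and to 108% and 88.0% in R2, so in R2 of replicate 1 they held more counts than TPI1 itself. Copies of PKM (40.2% and 33.3%), PGK1 (36.7% and 30.2%), ENO1 (34.1% and 32.3%) and HK2 (24.3% and 21.5%) lay lower in R1, and those of ALDOA (17.5% and 16.8%) and PGAM1 (14.2% and 15.4%) lowest. The copies' share of the parent count was larger in R2 than in R1 for 8 of 9 genes in replicate 1, all but PGAM1, and for 7 of 9 in replicate 2, all but PGAM1 and HK2.

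**Figure D4:**
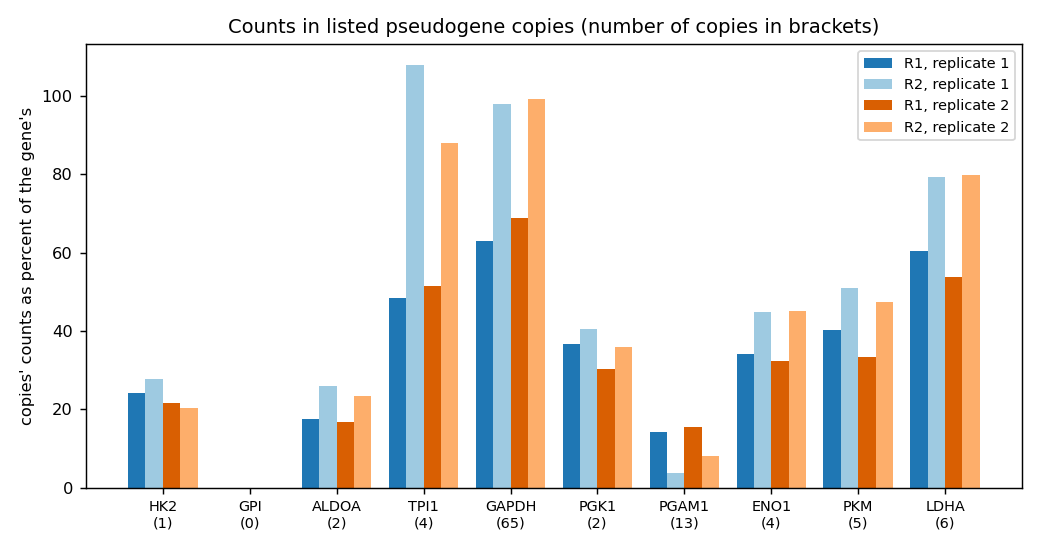
Summed counts of the listed pseudogene copies of each gene as a percent of the gene's own count, in the 4 count tables, with the number of copies in brackets. The R2 bars exceed the R1 bars of the same replicate for 8 of 9 genes with copies in replicate 1 and for 7 of 9 in replicate 2, and GPI has 0 copies.

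Among the copies with the most counts for each gene, ENO1P1 was highest. ENO1P1 (RP4-670F13.2 in the tables, chromosome 1, 236646465 to 236647768) had 421 and 700 R1 counts and 428 and 715 R2 counts. GAPDHP1 (CTD-2324A24.1, chromosome X, 39646386 to 39647390) had 257 and 403 in R1 and 240 and 448 in R2. PKMP1 had 176 and 248 in R1, ALDOAP2 158 and 248, PGK1P1 136 and 169, TPI1P1 101 and 215, LDHAP4 91 and 130, HK2P1 42 and 60, and PGAM1P5 23 and 33. The listed PGAM1P5 feature is 122418 bases long, far longer than a copied mRNA, so its counts need not lie in the copy. Of the 35 copies past the minimum, 21 had at least as many R2 as R1 counts in replicate 1 and 17 in replicate 2. Their median mate ratio was 103% and 98.2%, and 22 of the 35 stood above their parent gene in both replicates. Over all 1284 processed pseudogenes past the minimum the median was 87.5% and 85.7%, and 530 and 487 had at least as many R2 as R1 counts.

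**Figure D5:**
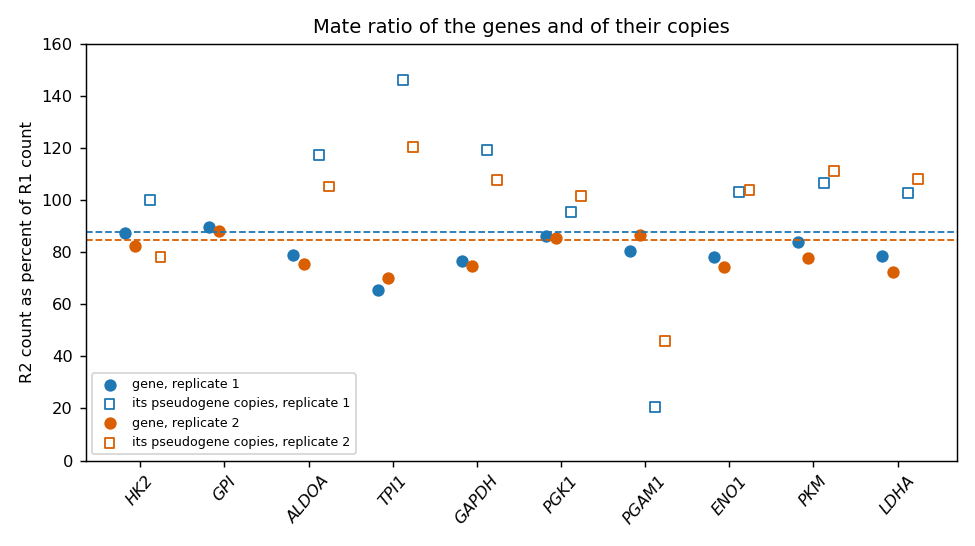
R2 count as a percent of the R1 count for each gene (filled points) and for the sum of its pseudogene copies (open squares), in replicates 1 and 2. Dashed lines are the medians of all protein-coding features past the minimum, 87.8% and 84.6%. The copies lie above their gene for all genes with copies except PGAM1 in both replicates and HK2 in replicate 2.

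The sequences show how alike gene and copy are. The first 60 coding bases of 5 genes are printed with the aligned bases of a copy that held counts, since these are pairs in which a short read can fit both. They are from GENCODE 29 transcripts (GRCh38), in the sense of the mRNA, 5′ to 3′, with capitals at the bases that differ.
GAPDH: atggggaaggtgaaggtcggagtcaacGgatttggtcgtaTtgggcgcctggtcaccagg
GAPDHP1: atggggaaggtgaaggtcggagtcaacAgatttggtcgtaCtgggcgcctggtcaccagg
ENO1: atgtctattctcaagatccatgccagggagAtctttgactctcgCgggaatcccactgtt
ENO1P1: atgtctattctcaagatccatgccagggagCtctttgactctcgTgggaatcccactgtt
TPI1: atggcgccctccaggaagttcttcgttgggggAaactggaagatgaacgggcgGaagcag
TPI1P1: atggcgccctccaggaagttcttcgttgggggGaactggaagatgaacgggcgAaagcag
ALDOA: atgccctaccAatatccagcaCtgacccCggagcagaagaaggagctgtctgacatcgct
ALDOAP2: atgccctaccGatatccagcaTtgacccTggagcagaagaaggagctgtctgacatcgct
PGAM1: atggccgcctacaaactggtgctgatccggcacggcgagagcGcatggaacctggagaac
PGAM4: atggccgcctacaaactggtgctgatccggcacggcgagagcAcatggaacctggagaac

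Over the aligned coding bases, at least 98.1% of each of the 4 coding sequences that follow, GAPDHP1 was 96.2% identical to GAPDH, with a longest identical run of 93 bases. TPI1P1 was 98.1% identical to TPI1 (longest run 161 bases), ENO1P1 93.2% to ENO1 (95 bases) and ALDOAP2 91.2% to ALDOA (60 bases). Of all windows of 30 bases in the coding sequence, 67.1% for TPI1, 64.3% for GAPDH and 49.4% for LDHA occurred without a difference in at least 1 of the gene's copies. The share was 76.1% for PGAM1 with PGAM4 among its copies, 35.5% for HK2, 30.1% for PGK1, 18.4% for PKM, 16.9% for ENO1 and 8.75% for ALDOA. Read length and the treatment of reads with several matches are not stated in the labels. Counts of the 9 genes with copies are therefore uncertain by an unknown amount, and how the copies came to their counts was not tested.

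PGAM4 links 2 of the genes. It is a protein-coding retrocopy of PGAM1, 98.3% identical to its coding sequence with a longest identical run of 269 bases, and it lies on the other strand within the PGK1 feature (chromosome X, 77224371 to 77225135). It held 25 and 40 R1 counts and 29 and 48 R2 counts, or, with strand ignored in counting, 6.08% and 6.01% of the PGK1 counts in R1 over 0.350% of the span. Per kilobase, its R1 level was 0.351 of that of PGAM1 in replicate 1 and 0.352 in replicate 2. The PGAM1 level here is the whole-span count, introns included, per kilobase of exon union.

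The list of other isoforms had a lower median level. It also holds the phosphofructokinases and BPGM, which are not isoforms of the 10 enzymes. Of the 18 genes listed, 13 passed the minimum, and the list median was 0.753 ± 0.343 CPM per kilobase of exon (SD, n = 2). The median of the 10 genes was 3.21 in replicate 1 and 7.14 in replicate 2. LDHB, the lactate dehydrogenase subunit of heart and other oxidative tissues, stood at 8.26 ± 4.75, above LDHA at 4.90 ± 2.57, and had 408 and 714 counts. Its listed span is 122516 bases long, and per kilobase of span it stood at only 0.201 ± 0.116. The phosphofructokinases, which catalyse the committed step between GPI and aldolase, had 211 and 361 counts for PFKP (2.59 ± 1.46 per kilobase of exon), 181 and 292 for PFKL (1.16 ± 0.610) and 111 and 155 for PFKM (0.786 ± 0.343) (SD, n = 2 each). Per kilobase of span the 3 highest isoforms were PGAM4 (1.86 ± 0.968), PGK2 (0.699 ± 0.255) and ENO3 (0.599 ± 0.209). For PGAM4 and PGK2 the span is as long as the exon union, so both measures give them the same level. Per kilobase of exon PGK2 thus lay below the list median of 0.753, and PGAM4 and ENO3 (1.26 ± 0.439) lay above it. The highest of the list per kilobase of exon were LDHB, PFKP and HK1 (2.28 ± 1.14). Against protein-coding counts, 1 of the 13 (LDHB, ratio 1.20, exact binomial adjusted p = 0.042) was higher in replicate 2 and 0 were lower.

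Mates of some isoforms went the other way from those of the 10 genes. ENO3, the muscle enolase, had 114 and 139 R1 counts but 190 and 323 R2 counts, or 167% and 232%. ALDOC had 37 and 58 R1 counts and 45 and 74 R2 counts, or 122% and 128%. The tissue-restricted isoforms PKLR and HK3 had at most 7 R1 counts in either library.

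The lists of neighbouring pathways had lower medians as well. Sugar and lactate transporters and regulators of glycolysis (11 genes, all past the minimum) had a median of 1.12 ± 0.603 CPM per kilobase of exon (SD, n = 2). The highest per kilobase of span were MYC, a transcription factor (1.73 ± 0.830), SLC16A1, a lactate transporter (0.463 ± 0.298), and SLC16A3, another (0.309 ± 0.166). Against protein-coding counts, 1 of the 11 was higher in replicate 2 (SLC16A1, ratio 1.36, adjusted p = 0.000447) and 1 lower (PDK1, ratio 0.756, adjusted p = 0.0314), by the exact binomial test. The 7 pentose phosphate genes had a median of 1.38 ± 0.582 per kilobase of exon, led per kilobase of span by TKT (0.668 ± 0.416), TALDO1 (0.372 ± 0.242) and PGD (0.295 ± 0.159). TKT was called higher in replicate 2 (ratio 1.31, exact binomial adjusted p = 0.00303). The 16 genes of pyruvate entry and the citric acid cycle had a median of 1.28 ± 0.758, led per kilobase of span by MDH2 (0.778 ± 0.499), IDH3B (0.539 ± 0.370) and PDHB (0.535 ± 0.302). MDH2 was called higher in replicate 2 (ratio 1.35, exact binomial adjusted p = 0.00636). These medians are per kilobase of exon and the leading genes per kilobase of span, so they are not on the same scale. Per kilobase of span the medians of the 3 lists were 0.170, 0.247 and 0.193. Per kilobase of exon, IDH3B (1.22) and PDHB (0.707) lay below their list median. SLC16A3 (1.12) was at its list median, and the other leading genes lay above theirs. All values with ± are means with SD, n = 2, and the calls are from the exact binomial test. The background for these calls is the 5.25% higher and 1.63% lower given above.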

How the data were processed

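Per the labels' protocols, the RNA was dephosphorylated, treated with AlkB enzymes to remove modifications, ligated to an adaptor and purified as crosslinked complexes. The authors deposited 4 tables of raw read counts (2 replicates, 2 mates), whole numbers for each feature. The tools, per the submitters' processing notes, were bedtools 2.24.0 and Bowtie2 2.3.5.1, and the build was hg19 (GRCh37). Alignment options and use of strand: not given in the sources used. Nested features on opposite strands were compared to check for use of strand, a step added after the data were seen.

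Of 741091 lines, 13 repeats were dropped. R1 counts were scaled by the R1 total and R2 counts by the R2 total, and both by span or by GENCODE 29 exon union. That union was known for 13134 of the 13220 protein-coding features with a mean R1 count of at least 10. An exact binomial test (two-sided) compared how each feature's counts divide between the replicates, Benjamini-Hochberg adjusted over those 13220 at 0.05. It was also run on simulated data that held counting error only, which is what the test assumes. That run cannot show how other variation between libraries affects the calls. Coding sequences were aligned with Biopython 1.88. Gene names were found for 14517 of 15071 pseudogene IDs. TMM factors came from edgeR 4.0.16 in R 4.3.3. Other steps ran in Python 3.11.15 with scipy 1.17.1, pandas 2.3.3, matplotlib 3.10.9 and numpy 2.4.6.

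The genes and lists were chosen with earlier results of these data known. Named are all 10 genes, the 3 highest of each other list per kilobase of span and the phosphofructokinases, the highest copy of each gene, overlapping features, and 5 genes of similar profile. LDHB, ALDOC, PDK1, other isoforms and the printed sequence pairs were chosen after their values were seen. Some genes of the other lists, and the counts of calls that need them, are not reported here.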

Additional observations from a re-analysis of the deposited data

How the results depend on the processing

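Of the 68 values recomputed for the main results under other settings, 38 kept their call or moved by less than the spread, 26 moved and 4 lost calls. The 38 overstate stability. A value with a replicate left out always lies within the spread of the 2 replicates, and the minimum count cannot alter the mate ratio. Those values could only be counted as kept. The number of genes called as differing between the libraries was 10 with the R2 tables, the sum of mates and the other minimum counts. Most features tested were called higher in these settings too. They were 10751 of 12870 in R2 and 12796 of 14256 with the mates summed. With minimum counts of 1, 50 and none they were 12240 of 16888, 8583 of 8750 and 12217 of 17787. The number for the 10 genes fell to 6 with the total of protein-coding features without tRNA overlap (also when only those features were tested). It was 2 with median-of-ratios factors and 3 with TMM factors. Over all 13220 features, calls went from 11809 higher and 33 lower to 694 and 216, 180 and 356, and 228 and 324. The median replicate ratio (2.40) was 1.22, 1.11 and 1.12 under these scalings, 2.18 in R2 and 2.31 with the mates summed. The median level (2.01 CPM per kilobase) was 3.80 in R2, 24.5 when scaled to protein-coding counts and 5.17 per kilobase of exon, and 1.27 to 2.76 when each replicate was left out. Levels in R2 were scaled by the R2 totals, which were 40.3% and 42.7% of the R1 totals. They are thus higher through the smaller divisor, while the R2 counts of all 10 genes were below their R1 counts. The lists of isoforms, transport and control, pentose phosphate and citric acid cycle had medians of 0.184, 0.170, 0.247 and 0.193, which became 0.365, 0.350, 0.520 and 0.395 in R2 and 0.753, 1.12, 1.38 and 1.28 per kilobase of exon. The median percentile (98.2) was 98.1 in R2, 97.2 per kilobase of exon, 98.6, 97.4 and 98.8 with minimum counts of 1, 50 and none, 98.1 without GAPDH, 97.6 for the 2 genes that overlap no other feature (PGAM1 and PKM), and 98.4 without features that overlap tRNA. The median mate ratio (78.1%) was 81.2% after subtraction of enclosed features and 82.2% for PGAM1 and PKM. The coding length from RefSeq proteins was not run, since no protein table was used here. Leaving out a replicate gives no replicate ratio. No paired analysis was possible because there is 1 group.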

Other observations

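Genes whose 4 levels per kilobase of span (2 mates, 2 replicates) were nearest to the median profile of the 10 glycolytic genes, among 8662 other protein-coding features without a tRNA overlap and with a mean count of at least 50, came from several functions. They were SCD, a fatty acid desaturase (distance 0.126 on the log2 scale with a pseudocount of 0.1), NDUFB10, a subunit of respiratory complex I (0.149), RP11-666A8.13 (0.151), HNRNPA1 (0.158) and HNRNPU (0.163), the last 2 RNA-binding proteins of the nucleus. SCD had 612 and 959 R1 counts and 532 and 821 R2 counts. HNRNPA1 had 272 and 400 R1 counts and 198 and 317 R2 counts, a mate ratio of 72.8% and 79.3%.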
